A study of Mus musculus with 4 samples.

Results

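The measurements concern 9 tumour suppressor genes known to be deleted or silenced in liver cancer, namely Trp53, Cdkn2a, Rb1, Stk11, Rassf1, Dlc1, Apc, Axin1 and Cdkn1a. They were chosen by name, with earlier results of these data known. All 9 were on the array, with 27 of its 52385 autosomal probes and among 20422 named autosomal genes. Each gene was read together with its flank, meaning all other probes within 1 Mb on either side, 737 probes in all. DNA of 4 samples of liver cells was measured by array comparative genomic hybridisation, in which differently dyed sample and reference DNA are hybridised together to probes of known position. All 4 samples carry the genotype label TAK1LPC-KO_RIP3-_-, given by the series title as loss of TAK1 from liver parenchymal cells combined with a Rip3 knockout, and no second genotype was analysed here. The driver of the TAK1 deletion and the age of the mice are not given in the sources used here, nor is the tumour content. The sample DNA, extracted from fixed and embedded tissue sections, was labelled with Cy5, and the Cy3 reference was a pool of 4 normal livers. The labels state neither how the pooled tissue was preserved nor whether the samples are tumours, and a difference in preservation between sample and pool cannot be told apart from one in copy number. Without a dye swap, dye bias is not separated from copy number, and the spread among normal livers is left out because they were pooled. The labels do not say that the samples came from separate animals, so each p-value reflects the variation among 4 samples, part or all of which may be technical. Sections hold many cells, so a large change in few cells and a small change in most cells cannot be told apart. Markers of liver cells cannot be checked in genomic DNA.

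A tumour suppressor gene restrains growth, and a tumour cell commonly escapes it by mutation of one copy and deletion of the other, often with neighbouring genes. The p53 and RB proteins stop the cell cycle after damage or growth arrest signals, and Cdkn2a and Cdkn1a encode inhibitors that act with them. In liver cancer, changes of the p53 and RB pathways and of the Wnt brakes Axin1 and Apc are well known, as is loss of the human chromosome arms that hold RB1 and DLC1.

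Each gene was read through probes of 57 to 60 bases, of which 20% to 42.1% were G or C. The probes that the results turn on are given 5′ to 3′ as in the array files, with positions on mouse build mm9 and with the longest stretch of A and T alone in capitals. Strand is not given. All probes of Trp53, Cdkn2a and Rb1 are shown because probes of the same gene are compared, then the only probes of Stk11, Rassf1 and Cdkn1a, and the highest and lowest probe of Dlc1.
Trp53, chr11:69395366-69395425: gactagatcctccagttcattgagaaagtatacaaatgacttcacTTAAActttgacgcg
Trp53, chr11:69397121-69397180: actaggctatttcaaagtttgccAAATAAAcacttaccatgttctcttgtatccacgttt
Trp53, chr11:69404685-69404744: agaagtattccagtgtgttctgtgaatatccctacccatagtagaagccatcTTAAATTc
Cdkn2a, chr4:88934358-88934417: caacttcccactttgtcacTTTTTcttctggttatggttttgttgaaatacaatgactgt
Cdkn2a, chr4:88936288-88936347: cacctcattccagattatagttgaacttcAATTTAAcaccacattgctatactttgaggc
Cdkn2a, chr4:88938065-88938124: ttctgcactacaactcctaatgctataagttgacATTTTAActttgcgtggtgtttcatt
Rb1, chr14:73616549-73616608: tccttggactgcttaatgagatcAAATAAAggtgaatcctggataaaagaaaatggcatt
Rb1, chr14:73638144-73638203: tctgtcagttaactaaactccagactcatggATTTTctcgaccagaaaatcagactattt
Rb1, chr14:73639738-73639797: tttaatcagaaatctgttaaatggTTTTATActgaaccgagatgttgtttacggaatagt
Stk11, chr10:79586000-79586057: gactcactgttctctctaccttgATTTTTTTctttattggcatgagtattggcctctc
Rassf1, chr9:107464157-107464216: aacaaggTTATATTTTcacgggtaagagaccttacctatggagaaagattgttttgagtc
Cdkn1a, chr17:29232907-29232966: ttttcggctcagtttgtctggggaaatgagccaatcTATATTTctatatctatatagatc
Dlc1 highest, chr8:37782191-37782250: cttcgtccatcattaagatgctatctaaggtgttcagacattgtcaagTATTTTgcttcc
Dlc1 lowest, chr8:37655527-37655586: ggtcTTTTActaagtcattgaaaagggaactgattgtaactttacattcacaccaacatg

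Slide 1 carried replicates 1 and 2, and slide 2 replicates 3 and 4. In the sample channel 84.3% to 89.9% of spots exceeded background well, and in the pool channel 94.4% to 97.7%. The derivative log ratio spread, a measure of noise between neighbouring probes, was 0.376 to 0.417, which Feature Extraction marked as out of range each time. Precision is limited by having 4 arrays, and an exact two-sided sign-flip permutation test over 4 arrays cannot give a p below 0.125. All values are log2 ratios of sample over pool, with the median of the autosomal probes of each array set to 0. As a scale for a broad difference on these arrays, the 2172 X probes had medians of -0.83, -0.85, -0.89 and -0.87 on replicates 1 to 4. The labels used here give no sex for sample or pool.

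No flank of the 9 genes reached the X level. All 36 flank medians, 9 genes on 4 arrays, lay above the X median of the same array, and the closest, for Stk11, was 0.445 above it. This is not particular to the 9 genes. On the mean of 4 arrays the lowest flank of all 20276 genes was -0.47, where X lay at -0.86. A loss in part of the cells, or of a small part of the window, need not bring a flank median to that level. The comparison with X therefore cannot tell such a loss from none. The flanks of Rb1, Dlc1 and Cdkn2a lay above the pool, and those of Stk11, Trp53, Cdkn1a, Rassf1, Axin1 and Apc below it. By limma, 3 flanks passed higher and 6 lower at an adjusted p under 0.05. Among all genes 63.8% of flanks passed, 26.1% higher and 37.7% lower, so that passing was common. With a size limit of 0.25 added, 5.25% of all flanks passed, 2.17% higher and 3.08% lower, and of the 9 genes Rb1 did so above the pool and Stk11 below it. The median flank of the 9 genes was -0.13, against -0.021 for all genes.

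By gene, 5 of the 9 passed at an adjusted p under 0.05 with an absolute mean of at least 0.25 (limma), namely Rb1, Rassf1 and Dlc1 above the pool and Stk11 and Cdkn1a below it. Of all genes 35.4% passed, 16.2% higher and 19.3% lower, and the share was 41.8% among genes with 1 probe, 34.5% with 2 and 25% with at least 3. Stk11, Rassf1 and Cdkn1a rest on 1 probe each. Trp53, Cdkn2a, Apc and Axin1 did not pass. The median of the 9 gene ratios was -0.089, against -0.015 over all genes.

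**Figure D1:**
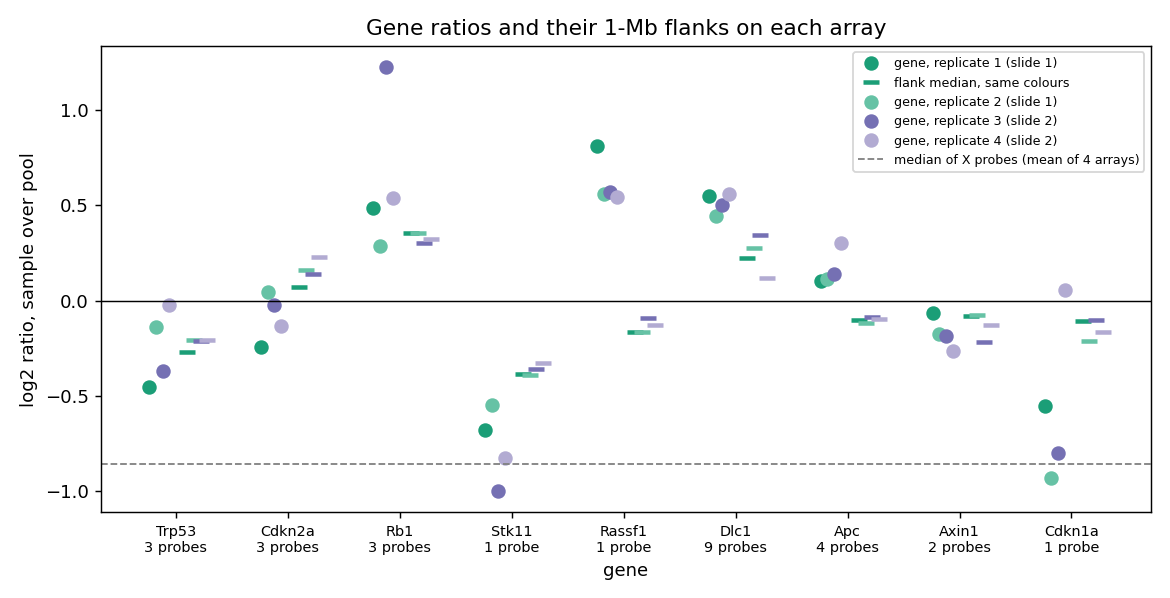
Log2 ratio of sample over pool (vertical axis) of each of the 9 genes on each of the 4 arrays, with the median of its flanking probes within 1 Mb and the X median for scale. Flank medians lie between -0.389 and 0.356 and gene ratios between -1.001 and 1.23.

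Stk11 encodes LKB1, the kinase that activates AMPK when cellular energy is low. Its probe on chromosome 10 gave -0.68, -0.55, -1.001 and -0.83 on replicates 1 to 4. All arrays lay below the pool, those of slide 2 lower than those of slide 1. The mean was -0.76 ± 0.19 (SD, n = 4; limma, adjusted p = 0.00203), and the probe was well above background in both channels on all arrays.

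The flank of Stk11 was low on both sides of the gene. Its 122 probes had medians of -0.39, -0.39, -0.36 and -0.33, a mean of -0.36 with a 95% interval of -0.41 to -0.32 (limma, adjusted p = 9.22e-07). Of these probes 105 lay below 0, and the medians before and after the gene were -0.37 and -0.37. A lower flank was found for 0.345% of genes. The median of all chromosome 10 probes was -0.027 ± 0.0082. The 10 probes nearest to the gene, reaching 123 kb before and 65.8 kb after it, had a mean of -0.20 ± 0.059. Sbno2, 52.6 kb before, had -0.31 ± 0.18 (adjusted p = 0.0284), whereas Dos, 10.5 kb after, lay above the pool at 0.28 ± 0.044 (adjusted p = 0.0132).

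Against its own flank the Stk11 probe differed by -0.40 ± 0.22 (SD, n = 4; limma, adjusted p = 0.0194), where 15.7% of all genes passed lower and 30.7% in either direction, or 38.1% of genes with 1 probe. The call was lost without replicate 3, at -0.32 (adjusted p = 0.0668), without replicate 4, at -0.36 (adjusted p = 0.0649), and within slide 1, at -0.23 (adjusted p = 0.173). Of the flanking probes 21 had a lower mean than the Stk11 probe.

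Base composition and gene density moved with the flanks. The flanking probes of Stk11 averaged 39.3% G and C, above the 95th percentile over genes of 38.2%, in a window of 81 named genes. Those of Rb1 averaged 34.9%, near the 5th percentile of 34.9%, in a window of 9. The medians over genes were 36.4% and 26 named genes. Across 20276 genes the flank ratio correlated with the G and C of the flanking probes at a Pearson correlation of -0.51 and a Spearman correlation of -0.52, and with the number of named genes at -0.47 and -0.47. These are descriptions across genes, which are not independent replicates and whose windows share probes and arrays. After subtraction of the median of all probes with the same G and C count, the flank was -0.35 for Stk11 and 0.34 for Rb1. The part of regional composition was not tested.

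**Figure D2:**
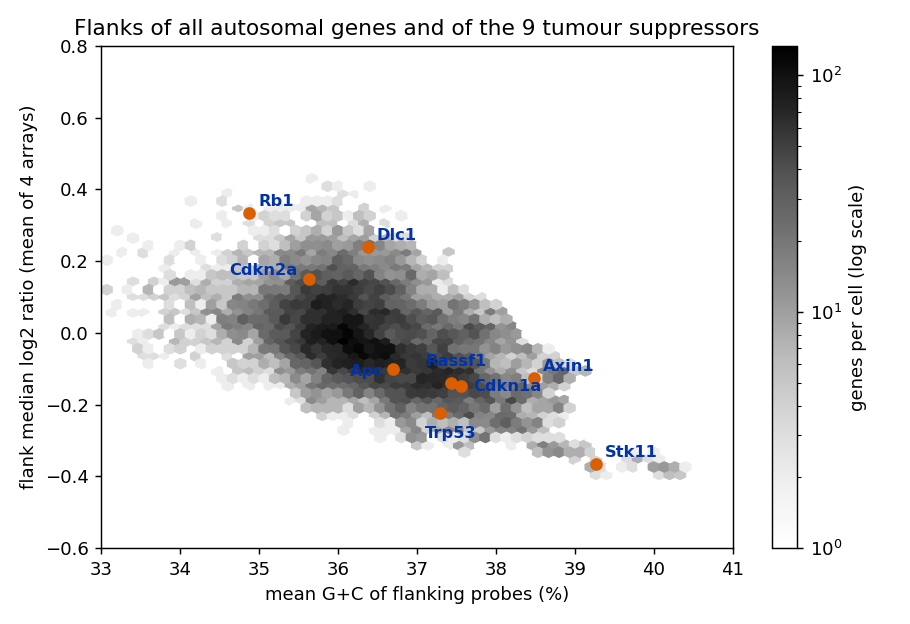
Flank median log2 ratio (vertical axis, mean of 4 arrays) against the mean G and C percent of the flanking probes (horizontal axis), over autosomal genes (grey density) with the 9 tumour suppressors marked. Rb1 lies at the upper left at 0.33 and Stk11 at the lower right at -0.36, and 47 of 20276 genes lie outside the axes.

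Trp53 encodes p53, the transcription factor that halts or kills damaged cells. Its gene ratio was -0.46, -0.14, -0.37 and -0.023 on replicates 1 to 4, below the pool on all arrays. The mean of -0.25 ± 0.20 (SD, n = 4) did not pass (limma, adjusted p = 0.0686). It passed with normexp background correction, at -0.25 (adjusted p = 0.00890), in the deposited table, at -0.36 (adjusted p = 0.0436), among probes well above background on all arrays, at -0.26 (adjusted p = 0.0323), and with arrays centred on the mode, at -0.28 (adjusted p = 0.0461). Under all other alternatives it did not pass, including when any 1 replicate was left out, at -0.32 to -0.18.

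The 3 Trp53 probes, within 9.38 kb, gave different values. The probe at 69404685 gave -1.35, -0.69, -0.86 and -0.72, below the pool on all arrays, with a mean of -0.91 ± 0.31 (limma over probes, adjusted p = 0.00334). The probe 7.50 kb from it, at 69397121, gave 0.36, 0.46, -0.0055 and 0.29, with a mean of 0.28 ± 0.20 (adjusted p = 0.0700). The range of the 3 probe means was 1.18, where the 2678 genes with 3 probes had a median range of 0.53 and a 95th percentile of 1.21. The remaining probe, at 69395366, gave -0.37, -0.18, -0.24 and 0.36, above the pool on replicate 4 alone, with a mean of -0.11 ± 0.32 (adjusted p = 0.542).

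The Trp53 flank of 144 probes lay at -0.22 ± 0.031 (95% interval -0.27 to -0.18), in a window of 80 named genes. The median of all chromosome 11 probes was -0.095 ± 0.012. Of the flanking probes 5 were lower than the low Trp53 probe, and the 10 nearest had a mean of -0.15 ± 0.10 and ran down to -0.70. The gene as a whole differed from its flank by -0.023 ± 0.18 (limma, adjusted p = 0.859), with both signs among the arrays. Of the nearest named transcripts, AK084182 had -0.24 ± 0.16 (adjusted p = 0.0545) and ENSMUST00000132548 0.14 ± 0.14 (adjusted p = 0.184), and neither passed.

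**Figure D3:**
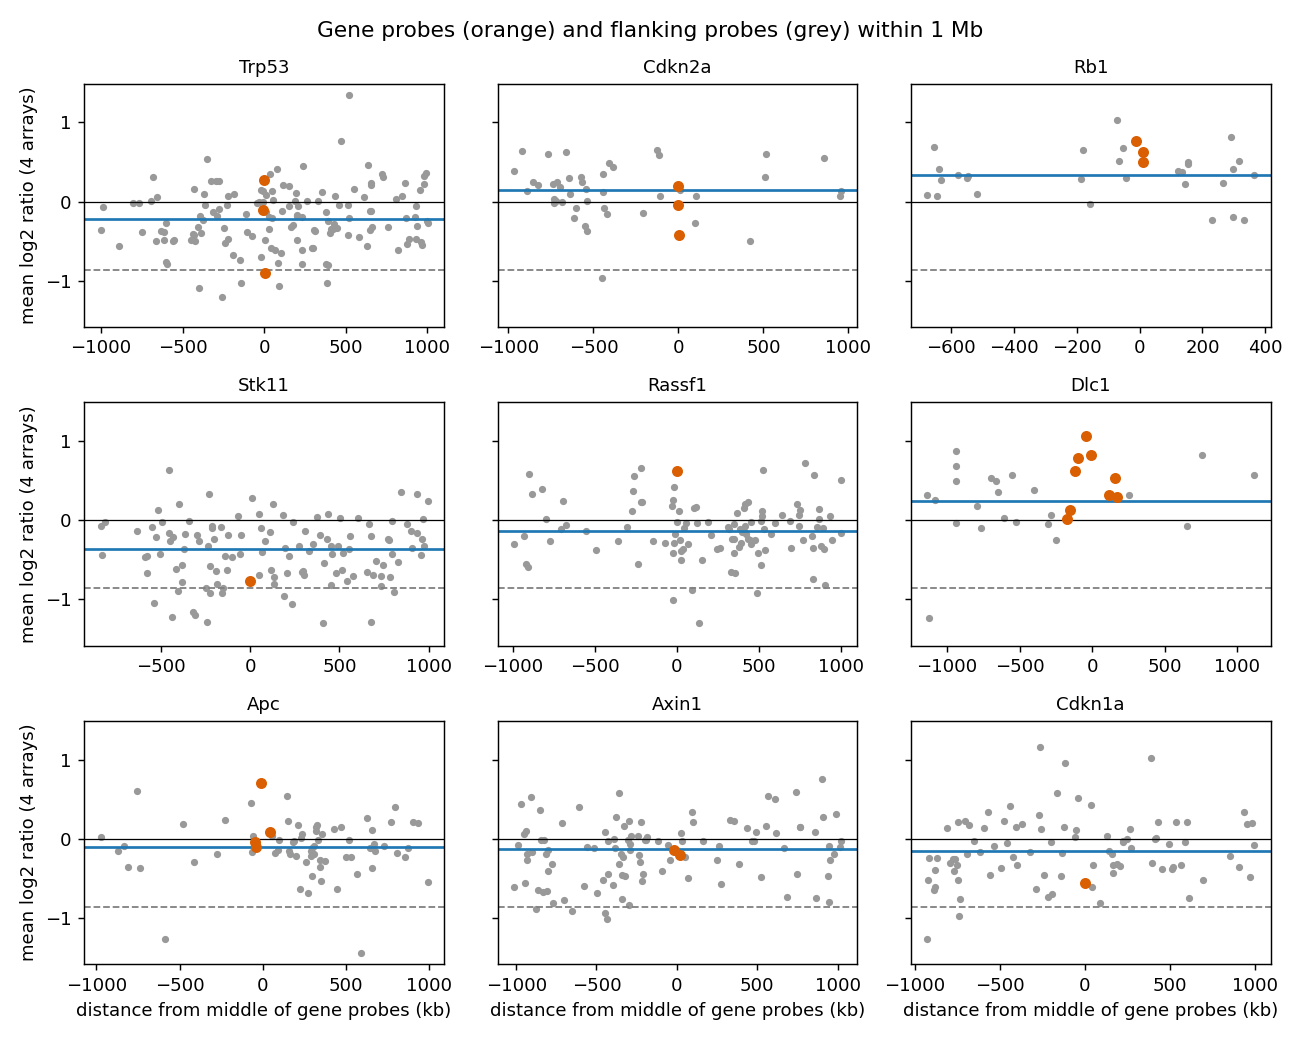
Mean log2 ratio over 4 arrays (vertical axis) of the probes of each gene and of the other probes within 1 Mb, against the distance in kb from the middle of the gene's probes. The low Trp53 probe at -0.91 lies among flanking probes with a median of -0.22.

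Cdkn1a encodes p21, the inhibitor of cyclin-dependent kinases that p53 switches on. Its probe on chromosome 17 gave -0.55, -0.93, -0.80 and 0.057, below the pool on 3 arrays and slightly above it on replicate 4. The mean was -0.56 ± 0.44 (SD, n = 4; limma, adjusted p = 0.0329). On no array did its sample signal stand well above background. With its sample signal raised to the lowest one counted as well above background, the log2 ratio was 0.24, so no reduction is bounded and no fold is given. The call was lost with normexp, at -0.0070 (adjusted p = 0.922), in the deposited table, at -0.67 (adjusted p = 0.0508), within slide 2, at -0.37 (adjusted p = 0.288), and without replicate 1, 2 or 3, at -0.56, -0.43 and -0.48.

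The Cdkn1a flank of 89 probes lay at -0.15 ± 0.053, and the 10 nearest probes at 0.051 ± 0.077. The difference of -0.41 ± 0.44 did not pass (limma, adjusted p = 0.0842), and passed without replicate 4, at -0.62 (adjusted p = 0.0114). Srsf3, which encodes a splicing factor, had 0.072 ± 0.23 on one side (adjusted p = 0.579), and ENSMUST00000141797 0.42 ± 0.088 on the other (adjusted p = 0.00451).

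Among other genes of the p53 pathway, 15 of 16 were measured, of which 2 lay higher, 5 lower and 8 did not pass, where 16.2% and 19.3% of all genes passed higher and lower. Against their flanks 2 passed higher and 2 lower, where 15.1% and 15.7% of all genes did. Gadd45a, a p53 target in growth arrest, had 0.54 ± 0.10 (limma, adjusted p = 0.00266). Bbc3, which encodes the cell death protein PUMA, had -0.43 ± 0.14 (adjusted p = 0.00636), and Sesn1, a sestrin, 0.40 ± 0.15 (adjusted p = 0.00928). The 3 probes of Sesn1 ranged from -0.057 to 0.82, and the others have a single probe. The list median was -0.076.

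Cdkn2a encodes p16, which inhibits the kinases that inactivate RB, and, in another reading frame, ARF, which holds back Mdm2. In human cancers the locus is often deleted together with MTAP. Here the gene ratio was -0.24, 0.042, -0.023 and -0.13, with both signs among the arrays. The mean of -0.089 ± 0.13 (SD, n = 4) did not pass (limma, adjusted p = 0.359), with a 95% interval of -0.26 to 0.084.

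The 3 Cdkn2a probes lie within 3.77 kb. The one at 88938065 gave -0.80, -0.36, -0.31 and -0.23, below the pool on all arrays and lowest on replicate 1, with a mean of -0.42 ± 0.26 (limma over probes, adjusted p = 0.0263). It lost that call without replicate 1, at -0.30 (adjusted p = 0.0714), without replicate 2, at -0.45 (adjusted p = 0.0654), without replicate 3, at -0.46 (adjusted p = 0.0534), and with normexp, at -0.20. The probe 1.72 kb away, at 88936288, gave 0.22, 0.42, 0.23 and -0.072, above the pool on 3 arrays (adjusted p = 0.160). The one at 88934358 gave -0.14, 0.062, 0.0050 and -0.097, with both signs (adjusted p = 0.705).

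The Cdkn2a flank of 44 probes lay above the pool, at 0.072, 0.16, 0.14 and 0.23, a mean of 0.15 with a 95% interval of 0.092 to 0.21. The median of all chromosome 4 probes was 0.091 ± 0.018. Mtap, the methionine salvage gene 112 kb away, gave 0.75, 0.65, 0.52 and 0.57, above the pool on all arrays, with a mean of 0.62 ± 0.098 (limma, adjusted p = 0.00174). AK148321 on the other side had -0.017 ± 0.11 (adjusted p = 0.861). The gene differed from its flank by -0.24 ± 0.12 (adjusted p = 0.0461), below 0 on all 4 arrays but short of the size limit. Among probes well above background on all arrays it passed, at -0.26 (adjusted p = 0.0177).

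Rb1 encodes the retinoblastoma protein, which holds E2F transcription factors in check. Its gene ratio was 0.49, 0.29, 1.23 and 0.54, above the pool on all arrays and highest on replicate 3. The mean was 0.63 ± 0.41 (SD, n = 4; limma, adjusted p = 0.0177). It was 0.39 (adjusted p = 0.0553) within slide 1 and 0.88 (adjusted p = 0.0518) within slide 2, so the call held in neither slide alone.

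The highest single value on replicate 3 came from the Rb1 probe at 73638144, which gave 0.55, -0.20, 1.97 and 0.21 and was not well above background on 3 arrays in each channel. The probe at 73616549 gave 0.67, 0.54, 0.95 and 0.92, above the pool on all arrays (limma over probes, adjusted p = 0.00282). The probe at 73639738 gave 0.24, 0.52, 0.76 and 0.49, above it as well (adjusted p = 0.0110). Among probes well above background on all arrays the gene mean was 0.62.

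The Rb1 window lay above the pool too. Its 29 flanking probes had medians of 0.35, 0.36, 0.30 and 0.32, a mean of 0.33 with a 95% interval of 0.29 to 0.38 (limma, adjusted p = 1.34e-06). Of these probes 4 lay below 0, and 99.4% of genes had a lower flank. The window reached 663 kb before and 353 kb after the gene, where its outermost probes lie. The median of all chromosome 14 probes was 0.11 ± 0.0077. Rb1 did not pass against its flank, at 0.30 ± 0.43 (limma, adjusted p = 0.173). It did among probes well above background on all arrays, at 0.30 (adjusted p = 0.0225), and without replicate 3 the difference was 0.094. Its neighbours ENSMUST00000171767 and AK037626 lay above the pool at 0.30 ± 0.17 (adjusted p = 0.0271) and 0.39 ± 0.32 (adjusted p = 0.0455).

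Among RB relatives, E2F factors, cyclins, cyclin-dependent kinases and their inhibitors, 14 of 18 were measured, of which 5 lay higher, 2 lower and 7 did not pass, where 16.2% and 19.3% of all genes passed higher and lower. Against their flanks 4 passed higher and 1 lower, where 15.1% and 15.7% of all genes did. Ccnd1, encoding cyclin D1, had 0.86 ± 0.37 (limma, adjusted p = 0.00494). Cdkn1b, encoding the inhibitor p27, had 0.57 ± 0.29 (adjusted p = 0.00968), and Cdkn1c, encoding the inhibitor p57, 0.50 ± 0.054 (adjusted p = 0.00243). Each rests on 1 probe, in flanks of -0.015, -0.094 and -0.12. The list median was 0.11.

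Rassf1 encodes an adaptor that links RAS to the Hippo kinases. Its probe on chromosome 9 gave 0.81, 0.56, 0.57 and 0.55, above the pool on all arrays, with a mean of 0.62 ± 0.13 (SD, n = 4; limma, adjusted p = 0.00211). The flank of 110 probes lay on the other side of 0, at -0.17, -0.17, -0.094 and -0.13, a mean of -0.14 with a 95% interval of -0.19 to -0.090. The difference of 0.76 ± 0.15 was the largest in size of the 9 genes (limma, adjusted p = 0.00171), and it passed under all alternatives that were run. Of the flanking probes 107 had a lower mean than the Rassf1 probe.

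The genes beside Rassf1 did not pass. Tusc2, 1.91 kb away, gave 0.31, -1.39, 0.46 and 0.55, low on replicate 2 alone (adjusted p = 0.965). Zmynd10, 14.4 kb to the other side, had -0.17 ± 0.15 (adjusted p = 0.121). Among other Rassf and Hippo genes, 16 of 16 were measured, of which 2 lay higher, 1 lower and 13 did not pass, where 16.2% and 19.3% of all genes passed higher and lower. Against their flanks 2 passed higher and 1 lower, where 15.1% and 15.7% of all genes did. Mobkl1a, now named Mob1b, a cofactor of the Lats kinases, had 0.65 ± 0.099 (limma, adjusted p = 0.00163). Sav1, a scaffold of the Hippo kinases, had 0.40 ± 0.28 (adjusted p = 0.0287), and Lats1, the kinase that restrains YAP, -0.28 ± 0.058 (adjusted p = 0.0136). Sav1 rests on 1 probe, which gave 0.80 on replicate 1 and 0.33, 0.17 and 0.31 on the others. The list median was -0.039.

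Dlc1 is named for its deletion in human liver cancer. It had the most probes of the 9 genes, 9 over 344 kb of chromosome 8. The gene ratio was 0.55, 0.44, 0.50 and 0.56, above the pool on all arrays with little spread, and the mean was 0.51 ± 0.052 (SD, n = 4; limma, adjusted p = 0.00224). Of the 9 probes 6 passed higher and none lower (limma over probes), and the highest, at 37782191, had 1.07 ± 0.40. Of all autosomal probes 36.9% passed, 18.2% higher and 18.8% lower.

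The Dlc1 probe means ranged over 1.05. Over 4664 genes with at least 3 probes the range had a median of 0.63 and a 95th percentile of 1.37. Of these genes 2678 have 3 probes, against 9 in Dlc1, and a range depends on the number of probes. The 4 neighbouring probes from 37710565 to 37822641, a stretch of 112 kb, had means of 0.85, 0.69, 0.83 and 0.94 on replicates 1 to 4. The other 5 probes had 0.31, 0.25, 0.23 and 0.26, below those 4 on all arrays. These sets were chosen after the values were seen, and their difference was not tested. The probe at 37726962 in that stretch was dim on 2 arrays in each channel, and the other 3 were well above background on all arrays.

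The Dlc1 flank of 23 probes lay above the pool, at 0.22, 0.28, 0.34 and 0.12, a mean of 0.24 with a 95% interval of 0.17 to 0.31. The flank was uneven, with 19 probes before the gene at a median of 0.21 and 4 after it at 0.44. The median of all chromosome 8 probes was 0.16 ± 0.010. The gene passed against its flank, at 0.27 ± 0.14 (limma, adjusted p = 0.0355). It lost that call when any 1 replicate was left out, at 0.22 to 0.31, with normexp, at 0.14, in the deposited table, at 0.24, among probes well above background on all arrays, at 0.17, and with a flank of 2 Mb, at 0.22. Dlc1 also lost the call within each slide and with slide means as 2 samples. The nearest named transcripts lay on opposite sides of 0, ENSMUST00000147525 at -0.25 ± 0.067 (adjusted p = 0.0209) and AK090359 at 0.32 ± 0.086 (adjusted p = 0.0114).

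Apc and Axin1 encode scaffolds of the complex that marks beta-catenin for destruction. The Apc ratio was 0.10, 0.11, 0.14 and 0.30, above 0 on all arrays, and the mean of 0.16 ± 0.092 (SD, n = 4) did not pass (limma, adjusted p = 0.0932). Of its 4 probes on chromosome 18, the one at 34423622 gave 0.22, 0.52, 0.74 and 1.34, above the pool on all arrays (limma over probes, adjusted p = 0.0196). That probe had the lowest G and C share of the 27, 20%, and was dim on 2 arrays in the sample channel and on 1 in the pool channel. The other 3 probes had means from -0.10 to 0.087, and none passed. Among probes well above background on all arrays the Apc ratio was -0.035.

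The Apc flank of 69 probes lay at -0.10 ± 0.014. The gene passed against it, at 0.26 ± 0.089 (limma, adjusted p = 0.0279). It lost that call when any 1 replicate was left out, at 0.22 to 0.28, among probes well above background on all arrays, at 0.063, with normexp, at 0.21, and after the G and C correction, at 0.22. Apc also lost the call within each slide and with slide means as 2 samples. Its neighbours ENSMUST00000097631 and Srp19 had -0.066 ± 0.19 (adjusted p = 0.572) and 0.044 ± 0.14 (adjusted p = 0.667).

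The 2 Axin1 probes on chromosome 17, at 26290710 and 26331849, had -0.14 ± 0.088 and -0.20 ± 0.16. The gene ratio was -0.064, -0.17, -0.18 and -0.26, below the pool on all arrays, and the mean of -0.17 ± 0.082 (SD, n = 4) did not pass (limma, adjusted p = 0.0766). The flank of 107 probes lay at -0.13 ± 0.065, and the difference of -0.046 ± 0.084 did not pass (adjusted p = 0.641). The flank medians before and after the gene were -0.19 and -0.025. Tmem8 and Arhgdig on either side had -0.077 ± 0.22 (adjusted p = 0.545) and 0.076 ± 0.19 (adjusted p = 0.514).

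Among other genes of beta-catenin destruction and Wnt signalling, 16 of 17 were measured, of which 1 lay higher, 5 lower and 10 did not pass, where 16.2% and 19.3% of all genes passed higher and lower. Against their flanks 1 passed higher and 2 lower, where 15.1% and 15.7% of all genes did. Dvl3, a dishevelled protein that relays Wnt signals, had -1.02 ± 0.12 (limma, adjusted p = 6.47e-04), with its 2 probes at -1.09 and -0.96 in a flank of -0.16. Tnks, the tankyrase that marks Axin for destruction, had 0.57 ± 0.13 (adjusted p = 0.00269). Apc2, a relative of Apc, had -0.45 ± 0.13 (adjusted p = 0.00507), in a flank of -0.37 and with its 2 probes at -0.96 and 0.063. Apc2 lies within the 1-Mb window of Stk11, and Dvl2, another of the 5 lower genes, within that of Trp53. Their probes are part of those flanks, and neither gene passed against its own flank (adjusted p = 0.459 and 0.152). The list median was -0.18.

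Among LKB1 and AMPK genes, 16 of 17 were measured, of which 2 lay higher, 2 lower and 12 did not pass, where 16.2% and 19.3% of all genes passed higher and lower. Against their flanks 2 passed higher and 1 lower, where 15.1% and 15.7% of all genes did. Prkag1, a regulatory subunit of AMPK, had -0.82 ± 0.20 on 1 probe (limma, adjusted p = 0.00172). Prkab2, another AMPK subunit, had -0.45 ± 0.37 (adjusted p = 0.0407), and Cab39l, a relative of the LKB1 partner Cab39, 0.34 ± 0.12 (adjusted p = 0.0123). Prkab2 lay above the pool on replicate 1, at 0.099. Neither Prkab2 nor Cab39l passed against its flank (adjusted p = 0.0806 and 0.0631). The list median was 0.061.

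**Figure D4:**
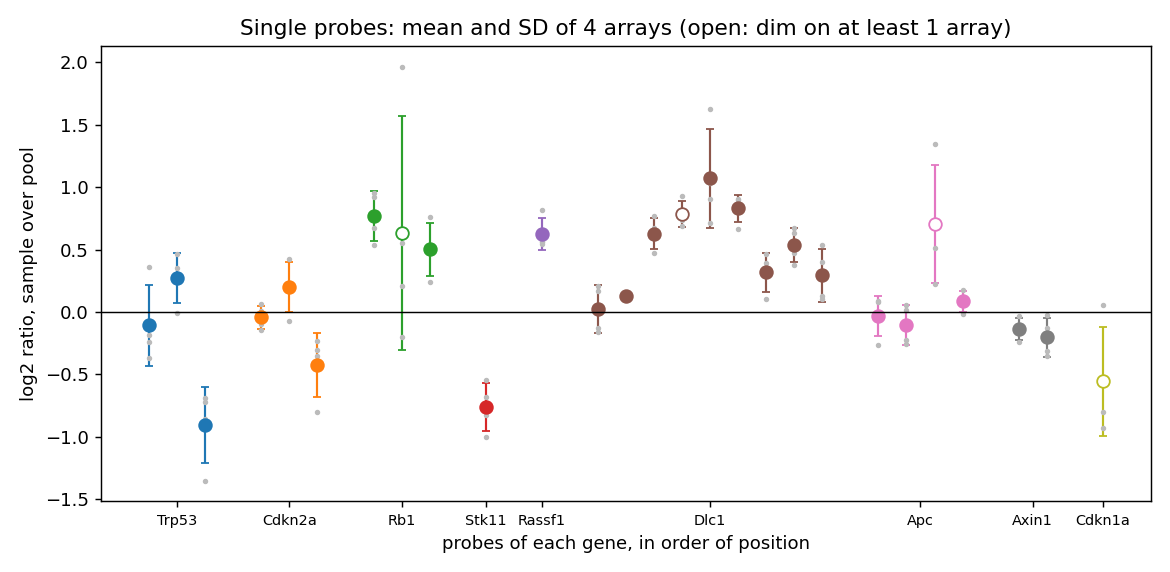
Log2 ratio of sample over pool (vertical axis) of the 27 probes of the 9 genes in order of position, as mean and SD of 4 arrays with the single arrays as dots. The 3 probes of Trp53 run from -0.91 to 0.28, and those of Axin1 from -0.20 to -0.14.

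Of the 27 probes 10 passed higher, 4 lower and 13 did not pass, where 18.2% and 18.8% of all probes passed higher and lower. Of the 10 higher ones 6 belong to Dlc1. The 4 lower ones belong to Trp53, Cdkn2a, Stk11 and Cdkn1a. In Trp53 and Cdkn2a the other 2 probes of the gene did not pass, and Stk11 and Cdkn1a have no further probe. Against the flank, Rassf1, Dlc1 and Apc passed higher and Stk11 lower, where 15.1% and 15.7% of all genes did.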

How the data were processed

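Per the file headers, the deposited intensity values came from Agilent Feature Extraction 10.10.1.1, with background subtraction, detrending, dye normalisation and surrogate values for dim spots, and probe positions are on mouse build mm9. The deposited log10 ratio served as a check. A deposited table, read as log2 values, was an alternative. It correlated with its own array at 0.912 to 0.923, with column medians of -0.035, 0.029, 0.052 and 0.005, and its normalisation and centring stay unknown. Here log2 of processed Cy5 over Cy3 was taken, without control or outlier-flagged spots, repeated spots were averaged per probe, and arrays were centred on the autosomal median. A gene was the mean of its probes and a flank the median of the other probes within 1 Mb (at least 10). Genes, probes, flanks and differences were each fitted over all autosomal features with limma 3.58.1 in R 4.3.3 (lmFit, eBayes, Benjamini-Hochberg). The fit was run on simulated data with independent values, which checked that planted shifts were returned and not how often calls are false. Flanks were called without a size limit. Normexp used an offset of 50. The genes named are the 9, the nearest named gene on each side, and up to 3 past the threshold per list; 1 list is not reported here. All 9 names are RefSeq symbols. Exon and intron positions were not used here. The genes and lists were chosen with earlier results of these data known.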

Additional observations from a re-analysis of the deposited data

Results flagged for a closer look

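Of 51 sets of 4 array values, 3 had 1 array far from the other 3, where chance flags about 1 in 20. The Trp53 flank was -0.27 on replicate 1, against -0.212 to -0.206 on the others. The Rassf1 gene ratio was 0.81 on replicate 1, against 0.545 to 0.572. The difference of Apc from its flank was 0.40 on replicate 4, against 0.204 to 0.232.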

How the results depend on the processing

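Flank calls of the 9 genes kept their direction and side of the threshold under all alternatives that gave a value (Cdkn1a had none among probes well above background). So did the gene ratios of Stk11, Rassf1 and Dlc1 and the Rassf1 difference. For the counts below, the cause of a change was not tested. Some of the settings use fewer arrays or a stricter limit. Within slide 1, 1968 genes passed higher, 4390 probes higher and 4852 lower, and 1697 differences higher and 1956 lower, with 6 probes of the 9 genes higher and 1 difference. Within slide 2, 1221 genes passed higher and 1516 lower, 1463 probes higher and 1776 lower, and 921 differences higher and 962 lower. Of the 9 genes, 1 was then lower, 4 probes higher and 2 lower, and 1 difference higher. With a size limit of 0.5, 947 genes passed higher and 1436 lower, 912 differences higher and 1111 lower, and 1 and 0 differences of the 9 genes. With normexp 2 probes of the 9 genes passed lower and 1 difference higher, with probes well above background 2 differences lower, and with slide means as 2 samples 1 higher and 2 lower. The shares over all features under these settings are not given here, so these counts cannot be set against them. In the main fit 18.8% of all probes passed lower, and 15.1% and 15.7% of all differences higher and lower. Leaving out 1 replicate gave 1 to 2 genes lower, 2 to 4 probes lower, 1 difference higher each time and 0 to 1 lower among the 9 genes, and 6296 to 6969 of all probes higher. Over all features it gave 2993 to 3294 genes lower, 6614 to 7247 probes lower, and 2055 to 2337 differences higher and 2150 to 2469 lower. The sign turned for Apc, to -0.035 among probes well above background, for the Cdkn1a difference, to 0.13 with normexp, and for the Trp53 difference, to 0.013 within slide 2 and -0.092 to 0.032 when 1 replicate was left out. Probe means turned for Dlc1 at 37673986 (-0.042, normexp), Dlc1 at 37655527 (-0.0074 with the mode, -0.040 to 0.083 when 1 replicate was left out, -0.0026 after the G and C correction), Apc at 34388003 (0.042, 0.047, 0.025 and -0.074 to 0.043 with normexp, the deposited table, slide 2 and 1 replicate left out), Apc at 34480197 (-0.0065, normexp), Apc at 34391522 (0.035, slide 1), Cdkn2a at 88934358 (0.019 with normexp, 0.041 in the deposited table) and Trp53 at 69395366 (0.061, slide 2). The G and C correction was chosen after seeing the data. No paired analysis was possible because there was 1 group. Dim probes limit Cdkn1a, Rb1, Dlc1 and Apc.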
